A study of Mus musculus with 16 samples.

Results

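The 7 genes described here encode the sterol regulator SREBP2 (Srebf2) and 6 enzymes that build cholesterol from acetyl units (Hmgcs1, Idi1, Fdps, Sqle, Lss and Dhcr7). They were chosen by symbol among the probes of the arrays, and all 7 were among the 24357 genes tested. No LDL receptor gene is among them. The livers came from male mice of the inbred strain BALB/c that were 6 to 8 weeks old when treatment began, and RNA from 1 animal was hybridised to each of 16 arrays. The control arrays were 4 from WT and 3 from Lcn2-/- mice, and the CCl4 arrays were 5 from WT and 4 from Lcn2-/- mice. CCl4 is a hepatotoxic solvent, and repeated doses cause fibrosis. It was diluted in corn oil and injected into the abdomen at 0.5 ml/kg, 2 times a week for 4 weeks, and tissue was collected 48 h after the last dose. The control groups were given corn oil. The Lcn2-/- mice lack lipocalin 2, a secreted protein, in every cell; the line was made in a mixed 129 and C57BL/6 background and crossed back to BALB/c. The comparison asks how repeated injury and the loss of Lcn2 change the liver transcriptome.

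Cholesterol is made mainly in the cytosol and the endoplasmic reticulum, and the liver is a major site of its synthesis. When sterols in the endoplasmic reticulum fall, SREBP2 is carried to the Golgi and cut by proteases, and the freed part enters the nucleus and switches on nearly every gene of the pathway, including its own. When sterols are plentiful, INSIG proteins hold SREBP2 back, so the genes of the pathway are known to rise and fall together.

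SREBP2 is known to bind a sterol regulatory element in promoters, often beside an inverted CCAAT box bound by NF-Y. Promoter sequences from RefSeq (GRCm38.p6) were matched for 5 of the 7 members, as 7 promoters, because 3 start sites were listed for Dhcr7; Fdps and Sqle were not matched. Both strands of the 250 bases before each start site were searched for TCACCCCA, a core of the sterol regulatory element, and for ATTGG, the inverted CCAAT box. The 2 letter strings do not overlap each other in the promoters shown. The core was found in Srebf2, 162 bases upstream of the start, and in Hmgcs1, 137 bases upstream, and it was held by 1.34% of 32851 promoters searched the same way. ATTGG was found 1 time in Srebf2, 3 times in Hmgcs1, 2 times in Idi1, 1 time in Lss and 2 times at the third start site of Dhcr7, and 33.8% of all promoters held it. Idi1, Lss and Dhcr7 held no match to the core in this window, which says only that these letters are not there. The promoters of the regulator and of the first enzyme among the members are shown because they hold both strings, in capitals. They run 5′ to 3′ along the plus strand at chr15:82147019-82147268 for Srebf2 and chr13:119690101-119690350 for Hmgcs1.
Srebf2: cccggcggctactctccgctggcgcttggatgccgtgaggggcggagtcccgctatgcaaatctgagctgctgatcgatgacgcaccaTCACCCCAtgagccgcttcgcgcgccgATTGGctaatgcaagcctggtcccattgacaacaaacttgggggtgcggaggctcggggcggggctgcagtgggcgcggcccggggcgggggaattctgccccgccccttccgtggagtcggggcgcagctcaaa
Hmgcs1: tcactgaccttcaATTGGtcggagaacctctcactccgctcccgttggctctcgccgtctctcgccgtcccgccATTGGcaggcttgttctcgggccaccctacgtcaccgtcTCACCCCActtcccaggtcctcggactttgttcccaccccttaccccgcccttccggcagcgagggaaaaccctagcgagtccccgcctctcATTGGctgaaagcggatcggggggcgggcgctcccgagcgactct

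Values are log2 of the quantile-normalized processed signal of the brightest probe of each gene, so a difference of 1 is a doubling, and levels of different probes are not set against each other. Every member's probe was well above the local background on all 16 arrays, and none was saturated. On the mm9 build of the files, the probes lie at chr13:8891524-8891583 (Idi1, plus strand), chr15:59162688-59162747 (Sqle, plus), chr10:76015992-76016051 (Lss, plus), chr7:151033874-151033933 (Dhcr7, plus), chr3:88897549-88897608 (Fdps, minus) and chr15:82034765-82034824 (Srebf2, plus), and that of Hmgcs1 lies on an unplaced piece of chromosome 13. Per array, 51.6% to 60.9% of all spots passed that mark, and the processed signal had a 75th percentile of 842 to 2067. The deleted gene fitted the labels: Lcn2 ranged from 13.79 to 17.57 on the WT arrays and from 10.47 to 12.25 on the Lcn2-/- arrays, with no overlap. Its probe was well above background on all 16 arrays, the Lcn2-/- arrays included; whether it reads the deleted part was not analysed here. The arrays lay on 2 slides, and slide nearly followed treatment: slide 1 held all 7 control arrays and WT CCl4 replicate 1, and slide 2 held the other 8 CCl4 arrays. In bulk liver, fewer cells of a type and less RNA per cell cannot be told apart. The summed signal of 6 hepatocyte markers ranged from 20.98 to 21.08 in WT controls, 21.03 to 21.08 in Lcn2-/- controls, 20.98 to 21.14 in WT CCl4 and 20.90 to 21.24 in Lcn2-/- CCl4, on the log2 scale, and 0 of the 6 changed with CCl4 in either genotype, beside 16.8% of all genes in WT and 12.2% in Lcn2-/-, to which a count of 0 of 6 is close.

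No member was called in any of the 5 contrasts, and with 7 genes a count of 0 is close enough to the shares of all genes that it is not a result about the members. After 4 weeks of CCl4 in WT livers, 0 of the 7 members changed at adjusted p under 0.05, while 16.8% of all genes tested did. In Lcn2-/- livers, 0 of 7 changed with CCl4, against 12.2% of all genes. Between Lcn2-/- and WT livers under CCl4 the count was also 0 of 7, against 0.636% of all genes, and between the control livers it was 0 of 7, against 0.53%. For the interaction, which sets the response of Lcn2-/- livers against that of WT livers, it was 0 of 7, against 0.0534%. In limma's test at an unadjusted p under 0.05, the counts of members were 1, 0, 1, 0 and 0 in the same order. Over all 24357 genes tested, the counts at that unadjusted p were 7477, 6579, 3335, 2021 and 811. A missed threshold does not show that levels were equal, and the intervals set the limit: the 95% confidence interval of the difference lay wholly within 2-fold in either direction for 4 of 7 members in the WT response, 3 in the Lcn2-/- response, 6 between genotypes under CCl4, 5 between the control groups and 3 in the interaction. The median difference of the members was -0.14 in the WT response and -0.15 in the Lcn2-/- response, beside -0.03 and -0.02 over all genes tested.

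**Figure D1:**
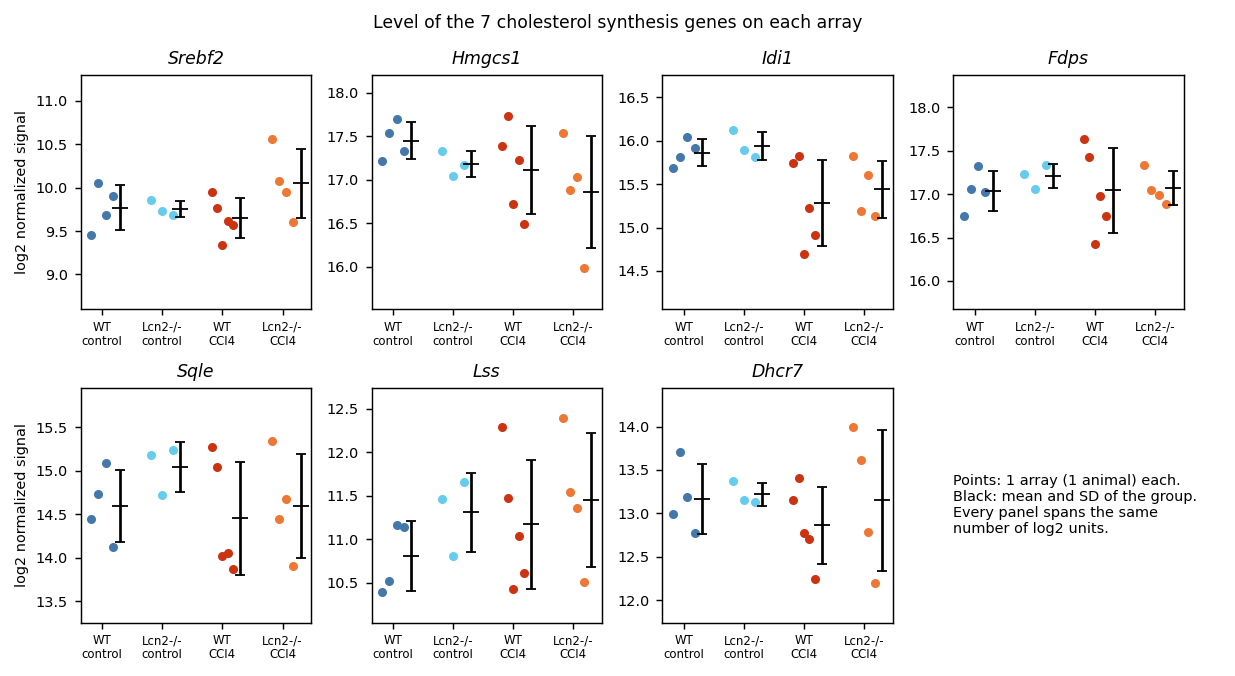
Level of each member on every array, as log2 normalized signal, in the 4 groups; each point is 1 array from 1 animal, and the black mark with its bar is the group mean and SD (n = 4, 3, 5 and 4). The groups overlap in every panel, and the CCl4 arrays are more widely spread than the control arrays in most, as for Lss, whose Lcn2-/- CCl4 arrays run from 10.51 to 12.39.

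Idi1, which encodes the isomerase that makes the reactive isoprene unit, had the lowest adjusted p of the members in the WT response. Its levels were 15.68, 15.81, 16.04 and 15.92 in WT controls and 15.74, 15.82, 14.70, 15.23 and 14.91 in WT CCl4. WT CCl4 replicates 1 and 2 lay among the controls, and replicates 3, 4 and 5 lay below all 4. The difference was -0.58 (SE 0.223, limma adjusted p = 0.0904), with an interval from -1.06 to -0.10. An exact permutation test gave p = 0.0794, or 0.759 after adjustment over the 28 comparisons of 7 members in 4 contrasts, in which 0.759 was also the lowest adjusted value. The smallest p these exact tests can give is 0.00794 for 4 against 5 arrays and 0.0286 for 3 against 4.

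Idi1 in Lcn2-/- livers was 16.12, 15.89 and 15.81 in controls and 15.82, 15.19, 15.61 and 15.13 under CCl4. Lcn2-/- CCl4 replicate 1 overlapped the controls, and the other 3 lay below them. The difference was -0.50 (SE 0.254, limma adjusted p = 0.219), close in size to that in WT, and the difference between the responses was 0.08 with an interval from -0.65 to 0.80. The call for Idi1 in WT depended on the scaling. With each array scaled to its 75th percentile in place of quantile normalization, the difference was -0.77 (adjusted p = 0.0138), and that scaling also moved the median of all genes from -0.03 to -0.16. Without WT CCl4 replicate 2 it was -0.72 (adjusted p = 0.0414).

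Hmgcs1 encodes the synthase that condenses acetoacetyl-CoA with acetyl-CoA at the start of the mevalonate pathway. It ranged from 17.22 to 17.70 in WT controls and from 17.04 to 17.33 in Lcn2-/- controls. On the CCl4 arrays it was 17.39, 17.73, 16.72, 17.23 and 16.49 in WT and 17.54, 16.88, 17.03 and 15.99 in Lcn2-/-. The highest CCl4 array of each genotype was above every control array of that genotype and the lowest was below every one. The responses were -0.33 in WT (SE 0.286, limma adjusted p = 0.466) and -0.32 in Lcn2-/- (SE 0.326, adjusted p = 0.568).

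Fdps encodes the synthase that joins isoprene units into farnesyl diphosphate, the branch point to cholesterol, ubiquinone and prenylated proteins. It ranged from 16.75 to 17.32 in WT controls, 17.06 to 17.34 in Lcn2-/- controls, 16.42 to 17.63 in WT CCl4 and 16.88 to 17.34 in Lcn2-/- CCl4. Its mean was 17.04 in both WT groups, and the interval of the difference ran from -0.45 to 0.46. In Lcn2-/- the response was -0.15, with an interval from -0.67 to 0.37.

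Sqle encodes squalene epoxidase, the first oxygen-requiring step and a controlled one. The WT controls were at 14.45, 14.73, 15.09 and 14.12, and the WT CCl4 arrays at 15.27, 15.05, 14.02, 14.05 and 13.87. The WT CCl4 arrays thus split into 2 high values and 3 low ones, around a group mean that differed from the controls by -0.14 (SE 0.338, limma adjusted p = 0.818). In Lcn2-/- the controls were at 15.18, 14.72 and 15.24, and the CCl4 arrays at 15.34, 14.45, 14.68 and 13.90, a difference of -0.45 (SE 0.385, adjusted p = 0.484).

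Lss encodes lanosterol synthase, which closes the sterol ring, and it was the most variable member. Its levels were 10.39, 10.52, 11.16 and 11.14 in WT controls, 11.46, 10.80 and 11.66 in Lcn2-/- controls, 12.29, 11.47, 10.43, 11.04 and 10.61 in WT CCl4, and 12.39, 11.54, 11.36 and 10.51 in Lcn2-/- CCl4. Replicate 1 of each CCl4 group stood above all control arrays. The responses were 0.37 in WT (SE 0.400, limma adjusted p = 0.578) and 0.14 in Lcn2-/- (SE 0.455, adjusted p = 0.878). For Lss the intervals reached 1.22 in WT and 1.12 in Lcn2-/-, so a doubling cannot be told from no change.

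Dhcr7 encodes a reductase that acts at the end of the pathway to give cholesterol. It ranged from 12.78 to 13.71 in WT controls, 13.13 to 13.37 in Lcn2-/- controls and 12.25 to 13.41 in WT CCl4. The Lcn2-/- CCl4 arrays were at 13.99, 13.62, 12.79 and 12.20, of which 2 lay above the Lcn2-/- controls and 2 below. The responses were -0.30 in WT (SE 0.328, limma adjusted p = 0.572) and -0.07 in Lcn2-/- (SE 0.374, adjusted p = 0.934).

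Srebf2 was the member with the lowest p between genotypes under CCl4. Its levels were 9.95, 9.77, 9.34, 9.61 and 9.57 in WT CCl4 and 10.56, 10.08, 9.95 and 9.60 in Lcn2-/- CCl4. Lcn2-/- CCl4 replicates 1 and 2 lay above every WT CCl4 array, replicate 3 was level with the highest of them, and replicate 4 lay among them. The difference was 0.40 (SE 0.182), with limma p = 0.0441 before and 0.352 after adjustment and an exact permutation p of 0.0873. Controls ranged from 9.45 to 10.05 in WT and from 9.68 to 9.86 in Lcn2-/-, and the response to CCl4 was -0.12 in WT and 0.29 in Lcn2-/- livers (limma adjusted p = 0.695 and 0.387).

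The arrays carry a second Srebf2 probe, and the 2 probes disagreed. The brighter probe lies at chr15:82034765-82034824 and the second at chr15:82030068-82030127, both on the plus strand of mm9. The second probe read 7.77, 8.56, 9.27 and 8.79 in WT controls and 9.58, 9.79, 9.86, 9.83 and 9.23 in WT CCl4, so that only WT CCl4 replicate 5 reached down into the controls, below WT control replicate 3. In Lcn2-/- it read 7.98, 8.37 and 9.15 in controls and 9.12, 9.98, 9.12 and 8.67 under CCl4, where 3 of the 4 CCl4 arrays lay below the highest control. In a fit over all 33014 probes its WT response was 1.06 (SE 0.319, limma adjusted p = 0.0379), against -0.12 at the brighter probe, and its Lcn2-/- response was 0.72 (adjusted p = 0.228). Between genotypes under CCl4, where the brighter probe gave 0.40, the second gave -0.44 (SE 0.319, adjusted p = 0.597), and in the interaction the brighter gave 0.42 and the second -0.34 (adjusted p = 1 for each). The second probe's call in the WT response did not survive 7 of the 16 fits that left out 1 array each, with values from 0.78 to 1.28 and adjusted p up to 0.143 without WT control replicate 1, and it was lost with slide in the model (0.98, adjusted p = 0.341). That call held with 75th percentile scaling (0.99, adjusted p = 0.0443), the replicate block (1.17, adjusted p = 0.0263) and array weights (1.43, adjusted p = 0.00278). The Lcn2-/- response of the second probe passed with array weights (1.11, adjusted p = 0.0185), a setting that called 28.6% of all genes in that response. The 2 probes were weakly related between arrays of a group, with Pearson's r of 0.19 over the 16 arrays after each group's mean was removed. Which part of the transcript each probe reads was not analysed here.

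**Figure D2:**
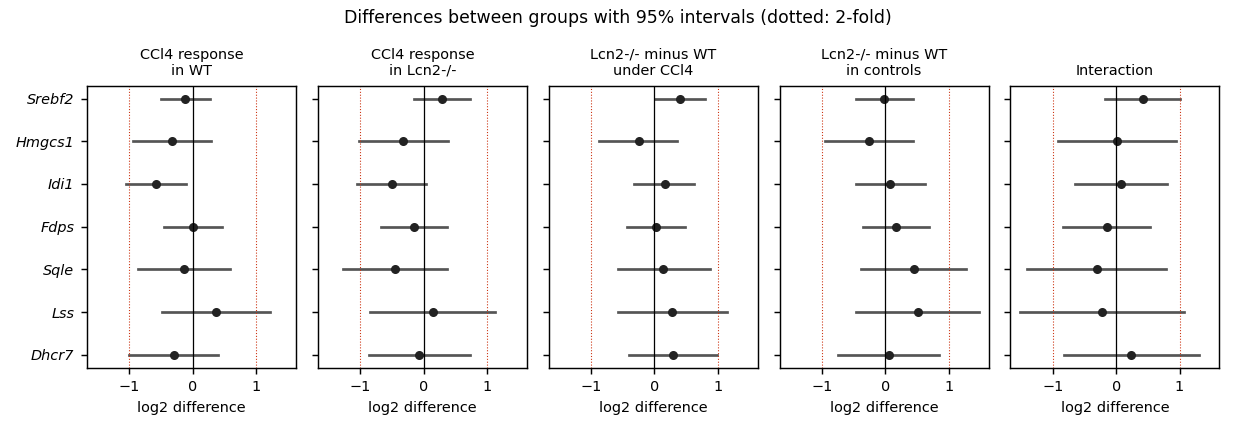
Log2 differences of the 7 members in the 5 contrasts (point) with the 95% confidence interval from limma (line); dotted lines mark 2-fold. Most intervals cross 0; those that do not are Idi1 in the WT response, from -1.06 to -0.10, and Srebf2 between genotypes under CCl4, from 0.01 to 0.79, and neither passed after adjustment.

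None of the genotype contrasts of the enzymes passed the test. Under CCl4 the differences of Lcn2-/- from WT were -0.25 for Hmgcs1, 0.16 for Idi1, 0.02 for Fdps, 0.14 for Sqle, 0.28 for Lss and 0.29 for Dhcr7, with limma adjusted p from 0.734 to 0.973. In the control livers the differences were -0.26 for Hmgcs1, 0.08 for Idi1, 0.17 for Fdps, 0.45 for Sqle, 0.51 for Lss and 0.05 for Dhcr7, and the lowest adjusted p was 0.953. In the interaction the members ranged from -0.31 for Sqle to 0.42 for Srebf2, with adjusted p of 1 for each. These contrasts share arrays with the CCl4 responses and with each other.

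Slide could be set apart only in part. The WT response within slide 1 rests on WT CCl4 replicate 1 against the 4 WT controls, with that array assumed to vary like the other groups, and it was 0.18 for Srebf2, -0.06 for Hmgcs1, -0.12 for Idi1, 0.59 for Fdps, 0.68 for Sqle, 1.49 for Lss and -0.01 for Dhcr7, with limma adjusted p from 0.113 to 0.99. No slide held both Lcn2-/- groups; with slide as a term in the model, their differences ran from 0.02 for Hmgcs1 to 1.54 for Lss, with adjusted p from 0.298 to 0.993. The differences of Idi1 and Hmgcs1, between -0.58 and -0.32 without the slide term, then lay between -0.12 and 0.07. Within slide 2 the differences of Lcn2-/- from WT CCl4 livers ran from -0.18 for Hmgcs1 to 0.56 for Lss, and that of Srebf2 was 0.48 (adjusted p = 0.376).

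What the members shared was their variation between arrays of the same group. When each group's mean was subtracted from each gene, the members went up and down together: the 21 pairwise values of Pearson's r over the 16 arrays ranged from 0.55 to 0.88, with a median of 0.77. Idi1 with Fdps was the closest pair (0.88), followed by Fdps with Lss (0.87) and Hmgcs1 with Sqle (0.86). Dhcr7, the last enzyme, gave the 3 lowest values (0.55 with Idi1 and Fdps and 0.62 with Lss). These r values are descriptions: the points share arrays, hybridisation and normalization, and no p is given.

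The arrays that carried this variation were CCl4 arrays. The mean of the 6 enzymes deviated from its group mean by 0.59, 0.50, -0.47, -0.11 and -0.51 on WT CCl4 replicates 1 to 5 and by 0.64, 0.03, -0.02 and -0.66 on Lcn2-/- CCl4 replicates 1 to 4. WT CCl4 replicates 1 and 2 and Lcn2-/- CCl4 replicate 1 were high, and WT CCl4 replicates 3 and 5 and Lcn2-/- CCl4 replicate 4 were low. On the 7 control arrays the deviation stayed between -0.24 and 0.26. Both genotypes thus held arrays at each end under CCl4. Position on the slide ran with this on slide 2, where the pair in column 1 were at 0.50 (WT CCl4 replicate 2) and 0.64 (Lcn2-/- CCl4 replicate 1) and the pair in column 4 at -0.51 (WT CCl4 replicate 5) and -0.66 (Lcn2-/- CCl4 replicate 4). The pairs in columns 2 and 3 were at -0.47 and 0.03 and at -0.11 and -0.02. On slide 1, WT CCl4 replicate 1 (0.59) lay in column 4. Each array held 1 animal, so on slide 2 animal and position cannot be told apart. With column added beside the groups, terms chosen after seeing the data, the median pairwise r of the members was 0.87 (0.71 to 0.95) over the 16 arrays. Over the 8 arrays of slide 2 alone it was 0.53 (-0.09 to 0.98), a value that rests on 3 residual degrees of freedom.

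**Figure D3:**
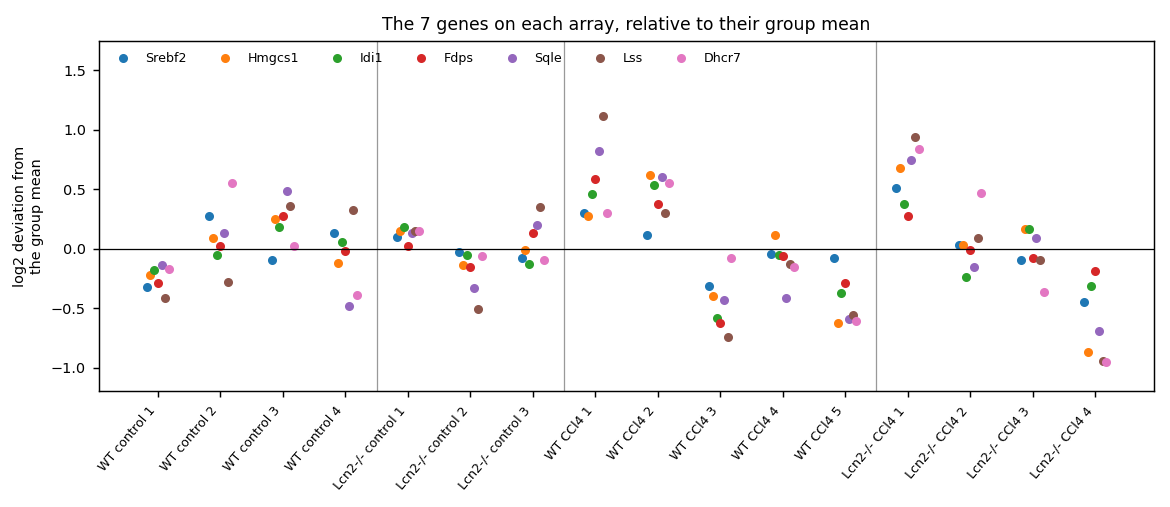
Deviation of each member from its own group mean (log2) on every array, with 1 colour per gene and vertical lines between groups. All 7 points lie on 1 side of 0 on 6 of the 9 CCl4 arrays (above on WT CCl4 replicates 1 and 2 and Lcn2-/- CCl4 replicate 1, below on WT CCl4 replicates 3 and 5 and Lcn2-/- CCl4 replicate 4) and on 3 of the 7 control arrays, on which the points run from -0.51 to 0.18.

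The spread between arrays was wider under CCl4 for most members. In WT the SD was larger under CCl4 than in controls for 6 of 7 members, with a median ratio of 1.84, whereas 53.3% of all genes were wider and their median ratio was 1.05. In Lcn2-/- it was larger for 7 of 7, with a median ratio of 2.09, beside 64.3% of all genes and a median ratio of 1.39. Srebf2 was the member that was not wider in WT, with an SD of 0.264 in controls and 0.227 under CCl4. The SDs rest on 3 to 5 arrays each and the ratios are given without a test. The members vary together between arrays, so the counts of members are not separate observations. The WT CCl4 arrays also lay on both slides, whereas all controls lay on slide 1. Pooled over the 4 groups, the SD ran from 0.275 for Srebf2 to 0.639 for Lss, beside a median of 0.299 over all genes.

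Over the 9 CCl4 arrays alone the pairwise r of the members ranged from 0.61 to 0.95, with a median of 0.85, and over the 8 arrays of slide 2 from 0.59 to 0.97, with a median of 0.84. Over the 7 control arrays they ranged from -0.27 to 0.85, with a median of 0.52. Without the 2 arrays farthest from their group mean, Lcn2-/- CCl4 replicates 4 and 1, the median was 0.67 and the range 0.36 to 0.91. The median was 0.72 with 75th percentile scaling, 0.78 with another background correction (normexp) and 0.78 in the authors' own normalized values. With any 1 array left out it lay between 0.72 and 0.81.

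Other measures of the arrays moved with the enzymes. The log2 75th percentile of the raw processed signal had r of 0.58 with the mean deviation of the enzymes, the share of spots well above background 0.29 and the summed hepatocyte markers 0.57, all over the 16 arrays with group means removed. Their part in the shared variation was not tested. The spots of Hmgcs1 and Sqle lie in rows 382 and 384 of 384, at the edge of the array, and 19 negative control spots in the last 20 rows differed from those in the middle rows by -0.03 to 0.08 (log2) on the 16 arrays. These controls read near background (medians of 2.4 to 3.41 in the last 20 rows), so they cannot show an edge effect on bright spots.

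Each member followed the others. The regulator Srebf2 had r of 0.81 with the mean of the 6 enzymes (Spearman's rho 0.74). Against the mean of the other 5 enzymes, r was 0.91 for Hmgcs1, 0.85 for Idi1, 0.86 for Fdps, 0.92 for Sqle, 0.86 for Lss and 0.72 for Dhcr7. The second Srebf2 probe, in contrast, had 0.31 with the enzyme mean.

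Most of the other genes of cholesterol synthesis varied with the members between arrays. Of 13 further enzymes of the pathway, 0 changed at adjusted p under 0.05 in any of the 5 contrasts, beside 16.8%, 12.2%, 0.636%, 0.53% and 0.0534% of all genes in the order above, and as with the members this count is not a result about the list. They had median differences of -0.11 in the WT response and -0.19 in the Lcn2-/- response. Their r with the mean of the 6 member enzymes had a median of 0.81. It was 0.5 or more for 11 of 13 (84.6%), against 7.99% of the 24350 genes tested outside the members, whose median was -0.05, and 0.7 or more for 9 of 13 (69.2%), against 1.31%. The share at 0.7 or more was higher among bright genes but stayed at 3.19% for the brightest, those with a mean level of 16 or more.

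Fdft1, which encodes squalene synthase, had r of 0.96 and Nsdhl, which removes methyl groups from the sterol ring, had 0.95. Mvd, the decarboxylase before Idi1, had 0.94, and Pmvk, a mevalonate pathway kinase, had 0.86. The lowest were Ebp (0.52), an isomerase of the sterol ring, Tm7sf2 (0.36), a sterol reductase, and Acat2 (0.30), which makes acetoacetyl-CoA. The largest differences among these enzymes were for Hsd17b7, a sterol ketone reductase, at -0.76 in the WT response and -0.74 in the Lcn2-/- response (limma adjusted p = 0.183 and 0.283).

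**Figure D4:**
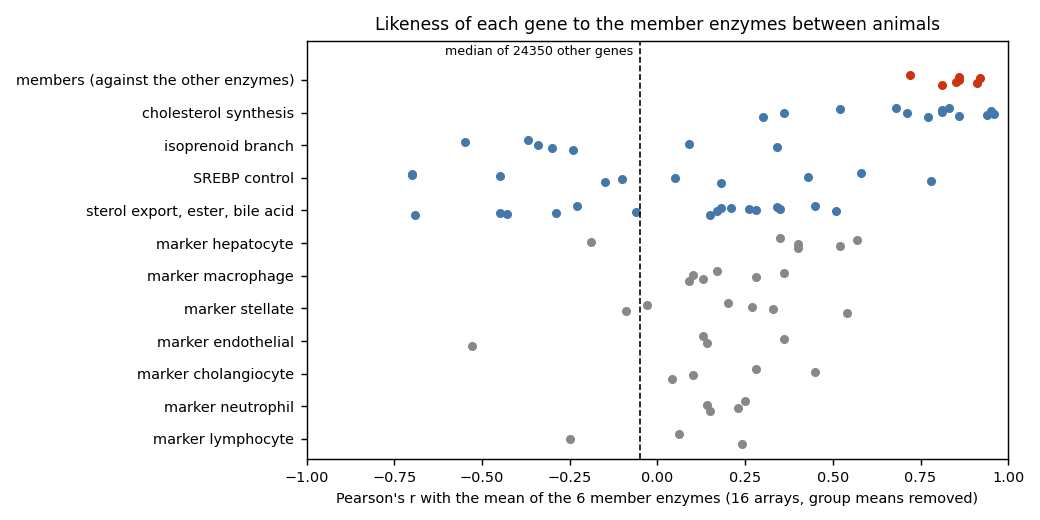
Pearson's r of each gene with the mean of the 6 member enzymes over the 16 arrays, group means removed, by gene list; each point is a gene, each member enzyme is set against the other 5, and the dashed line is the median of the 24350 other genes (-0.05). The members and the further cholesterol synthesis genes lie at the right, with 11 of 13 of the latter at 0.5 or more, while the isoprenoid branch lies from -0.55 to 0.34.

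Fewer genes of neighbouring pathways rose and fell with the enzymes between arrays, a difference given as counts at r of 0.5 or more without a test. Genes that moved against the enzymes were not counted. Of 7 tested genes of the isoprenoid branch, which turn farnesyl diphosphate into ubiquinone, dolichol and protein anchors, 0 reached r of 0.5 and the median was -0.30. None of the 7 changed in any contrast, a count that with so few genes is close to the shares of all genes given above and is not a result about the list. Of 10 genes that control SREBP, 2 reached 0.5: Insig1, the sterol-regulated anchor of SREBP2, had 0.78, and Stard4, a carrier of cholesterol between membranes, had 0.58. Srebf1, the related regulator of fatty acid synthesis, had 0.18, and Erlin2 and Rnf139 had -0.70 each. Of the same 10, 1 was called in the Lcn2-/- response, beside 12.2% of all genes, and 0 in the WT response, beside 16.8%. These counts are close to those shares and are not a result about the list. Mbtps2, one of the proteases that free SREBP, rose in the Lcn2-/- response by 0.56 (SE 0.141, limma adjusted p = 0.0174), from 7.53 ± 0.167 (SD, n = 3) to 8.09 ± 0.192 (SD, n = 4), and no other of the 10 changed in any contrast. That call was lost without Lcn2-/- control replicate 2 (0.47, adjusted p = 0.0975) and with slide in the model (0.83, adjusted p = 0.105). It was also lost with 75th percentile scaling (0.38, adjusted p = 0.106), with the mean of its probes (0.43, adjusted p = 0.0921), with slide and column as blocks (0.77, adjusted p = 0.0643) and in a fit of only the groups compared (0.56, adjusted p = 0.0818). Insig2, which encodes another INSIG protein and was singled out after its values were seen, was lower on every Lcn2-/- array than on any WT array of the same treatment. It read 15.44, 16.39, 15.96, 16.21 and 15.81 in WT CCl4 and 15.11, 14.81, 14.94 and 14.84 in Lcn2-/- CCl4, with no overlap. The difference was -1.04 (SE 0.228, limma adjusted p = 0.0589). It passed in 8 of 29 alternatives, and its adjusted p over all of them ran from 0.0179 to 0.15. It passed with normexp (adjusted p = 0.0435), with slide in the model (-1.17, adjusted p = 0.0327) and within slide 2 (-1.17, adjusted p = 0.0229). It also passed with array weights (-1.13, adjusted p = 0.0179), without both control arrays numbered 3 (adjusted p = 0.0456) and in 3 of the 16 fits that left out 1 array. Among those it did not pass were 75th percentile scaling (-0.88, adjusted p = 0.117), the mean of its probes (-0.96, adjusted p = 0.138) and the replicate block (-1.08, adjusted p = 0.0955). In the controls it read 16.42, 15.86, 15.75 and 16.93 in WT and 15.34, 15.43 and 15.29 in Lcn2-/-, again with no overlap, a difference of -0.88 (SE 0.259, limma adjusted p = 0.209). That difference passed only with array weights (-0.97, adjusted p = 0.01). The share of all genes without overlap in these comparisons was not counted, so the lack of overlap has nothing to be set beside. Its r with the enzyme mean was -0.10.

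Of 16 genes of sterol export, esterification and bile acid synthesis, 1 reached r of 0.5 (Soat1, which esterifies cholesterol, 0.51) and Abca1, which exports it, was at -0.69. In the WT response 2 of the 16 rose and 1 fell, beside 16.8% of all genes called, and in the Lcn2-/- response 1 rose, beside 12.2%; the first count is near that share and the second below it. Cyp39a1, a hydroxylase of oxysterols, rose in both genotypes. Its WT response was 3.84 (SE 0.455, limma adjusted p = 6.34e-05) and its Lcn2-/- response 3.28 (SE 0.518, adjusted p = 0.001). Both calls held in all 16 fits that left out 1 array each and with slide in the model (4.92 and 4.63). Those fits gave 3.57 to 4.00 in WT and 2.57 to 3.94 in Lcn2-/-, where the 3 controls had an SD of 1.38: the response was 2.57 without Lcn2-/- control replicate 3 and 3.94 without replicate 1. Npc2, which carries cholesterol out of lysosomes, rose by 0.58 in WT (adjusted p = 0.0375). Abcg8, one half-transporter of the sterol exporter into bile, fell by 0.73 in WT (adjusted p = 0.0492). These last 2 calls were near the threshold: that of Npc2 was lost in 8 and that of Abcg8 in 14 of the 16 fits that left out 1 array, with adjusted p up to 0.136 and 0.144, and both were lost with slide in the model. Npc2 was also lost with 75th percentile scaling (0.46, adjusted p = 0.0584) and with the replicate block (0.60, adjusted p = 0.0569). Abcg8 was also lost with normexp (-0.66, adjusted p = 0.0503) and in the authors' table (-0.67, adjusted p = 0.0623). Neither passed without the dim-probe filter or in a fit of only the groups compared.

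Markers of other cells are given here beside 16.8% of all genes called in the WT and 12.2% in the Lcn2-/- response; lists of 3 to 6 markers with 0 or 1 called are close to these shares. Of 6 stellate cell markers, 5 rose in each genotype, and their summed signal ran from 13.65 to 15.48 in WT controls, 13.00 to 13.19 in Lcn2-/- controls, 16.44 to 17.45 in WT CCl4 and 16.01 to 16.60 in Lcn2-/- CCl4. Of 6 macrophage markers 2 rose and 1 fell in WT and 2 rose in Lcn2-/-, of 4 neutrophil markers 3 rose in WT and 0 passed in Lcn2-/-, and of 4 endothelial markers 1 rose and 1 fell in WT and 1 rose in Lcn2-/-. All 4 neutrophil markers were higher under CCl4 in both genotypes, with a median difference of 2.61 in WT and 1.43 in Lcn2-/-, and 0 of 4 passed in the interaction (median -1.15). Their summed signal was 12.46, 12.70, 15.23 and 13.21 in WT controls, 12.07, 12.32 and 15.54 in Lcn2-/- controls, 14.89 to 16.16 in WT CCl4 and 14.32 to 14.85 in Lcn2-/- CCl4. The control arrays numbered 3 thus stood apart from the other controls, and that of Lcn2-/- lay above every Lcn2-/- CCl4 array. Without both, 0 of 7 members were called in either response, beside 22.4% of all genes in the WT and 15.1% in the Lcn2-/- response. Ngp was well above background on 1 control array of each genotype. Of 4 cholangiocyte markers 0 changed, and of 3 tested lymphocyte markers 1 fell in WT. With the enzyme mean between arrays, 2 of 6 hepatocyte markers (33.3%) had r of 0.5 or more, Cps1 at 0.57 and Ahsg at 0.52, and so did 1 of 6 stellate cell markers, Des at 0.54, beside 7.99% of all genes. None of the markers reached 0.7, and their medians ran from 0.06 for lymphocyte to 0.40 for hepatocyte markers; their part in the members' levels was not tested.

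The genes most like the enzymes outside the lists were, by the highest r, EG545741 (0.93), NAP061423-1 (0.92), an unnamed probe (0.91), NAP111402-1 (0.90) and NAP115054-1 (0.90), of which the NAP names are those of the array's design and EG545741 is a symbol that the files give for a predicted gene. The probe of EG545741 matches that of NAP115054-1 at 41 of 47 aligned bases and that of NAP061423-1 at 31 of 35, so these 3 features may not be separate from each other. The probe of NAP111402-1, at chr6:6685424-6685483 of mm9, shares an aligned stretch of 44 bases with that of Fdps, at chr3:88897549-88897608, with 2 mismatches. The Fdps probe also matches that of NAP002856-002 at 52 of 55 aligned bases and an unnamed probe at 41 of 44. Signal at Fdps and at these features may therefore not be separate, and the stretch shared with NAP111402-1 is shown because the likeness of the feature is not independent of a member. Both stretches are 5′ to 3′, with the mismatched bases in capitals.
Fdps: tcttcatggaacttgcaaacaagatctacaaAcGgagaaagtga
NAP111402-1: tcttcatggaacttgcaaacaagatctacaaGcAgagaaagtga

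Among genes outside the lists with a RefSeq mRNA accession, picked after their values were seen, the most alike were Eno1b and Eno1, near-identical enolase genes whose signals may not be separate (0.90 and 0.88), Dnajc22 (0.90) and Slc25a1 (0.87), the mitochondrial citrate carrier that supplies acetyl units for fatty acid and sterol synthesis.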

How the data were processed

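RNA from 16 mouse livers was labelled with Cy3 and hybridised to 1-colour Agilent arrays. Per the file headers, the deposited intensity values are each array's spot brightness on a linear scale, not normalized between arrays; the processed signal is background-subtracted by the scanner's software. A further deposited table holds log2 values made by the authors. Of its values, 99.81% lay within 0.05 of a log2 signal rebuilt here from median spot brightness less local background and then quantile normalized; its column medians were 6.53 to 6.55, and it served as an alternative. The submitters' processing notes name limma.

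Each array holds 62976 spots, of which 3671 are controls. Controls and outlier spots were left out, log2 processed signal was quantile normalized, the spots of a probe were averaged, and a probe was kept if at least 3 arrays showed it well above background (33014 probes). The probe with the highest mean stood for each gene, giving 24357 genes. By accession, 49.8% of gene spots matched RefSeq (GRCm38.p6) and took its symbol, which may be the same as before. The other spots kept their own name. Probe positions are those in the files (mm9), where the Hmgcs1 probe lies on chromosome 13_random. Each member had 1 spot per array. Across genes, r between arrays of a group was 0.9736 to 0.9916, and the number of arrays limits the precision.

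Groups came from the sample titles, which name mice and replicate numbers. Group differences came from limma 3.58.1 (R 4.3.3), fitted as a single model of the 4 groups without slide or replicate terms, with Benjamini-Hochberg adjustment over all genes within a contrast, threshold 0.05. Exact permutation tests were two-sided. The procedure was tested on simulated data. Alternatives were 75th percentile scaling, normexp with an offset of 50, the authors' table, no dim-probe filter, the mean of a gene's probes, outlier spots kept, slide, slide and column or replicate number as blocks, array weights, only the groups compared, arrays within a slide, and each array left out. Same-numbered arrays deviated together in the controls, on which the numbers follow the position on slide 1 (r 0.23, 0.37 and 0.55), while in the other contrasts not every pair did so (r -0.22 to 0.25). By rule, all 7 members, up to 3 changed genes of each other list, and the 5 genes most like the enzymes were named. Further genes were named outside this rule after their values were seen, for example for a high or low r or a large difference. The members and lists (further cholesterol synthesis, isoprenoid branch, SREBP control, sterol export and bile acid, and cell type markers) were chosen with earlier results of these data known.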

Additional observations from a re-analysis of the deposited data

How the results depend on the processing

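Over 994 member differences recomputed under the alternatives, 2 passed adjusted p under 0.05, both of Idi1 in the WT response (-0.77 with 75th percentile scaling and -0.72 without WT CCl4 replicate 2). The count of members called in that response was therefore 1 under that scaling and ran from 0 to 1 with each array left out. The further cholesterol synthesis genes called in the WT response were 3 with 75th percentile scaling (Tm7sf2, Ebp and Msmo1, all lower), 1 with the mean of a gene's probes (Tm7sf2, lower) and 2 with array weights (among them Hsd17b7, lower). In the Lcn2-/- response they were 1 with 75th percentile scaling (Ebp, lower) and 3 with array weights (among them Hsd17b7 and Mvk, lower). With 75th percentile scaling 30.7% of all called genes were higher in the WT response, against 47.7% with quantile normalization, and 36.3% against 53.9% in the Lcn2-/- response. With 75th percentile scaling, 21.1% of all genes were called in the WT and 13.3% in the Lcn2-/- response, and with array weights 29% and 28.6%. In the WT response the share was 16.6% with the mean of a gene's probes, 13.3% without WT CCl4 replicate 2 and 5.35% with the slide term. Beside such shares the counts above are not results about the lists, and the shares themselves moved. The cause of these moves was not tested.

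Of the 35 member differences, 26 changed sign under some alternative, and none was called with the opposite sign. Idi1 in the WT response, which was among them, was called with its negative sign under the 2 settings above. With slide as a block, the WT response was 0.18 for Srebf2 and 0.68 for Sqle, the Lcn2-/- response 0.02 for Hmgcs1, 0.07 for Idi1, 0.59 for Fdps, 0.57 for Sqle and 0.30 for Dhcr7, and the interaction 0.05 for Lss; within slide 1, Srebf2 and Sqle were again at 0.18 and 0.68. With slide and column as blocks, the WT response was 0.29 for Srebf2, 0.46 for Hmgcs1, 0.05 for Idi1, 1.19 for Sqle and 0.62 for Dhcr7, the Lcn2-/- response 0.71 for Hmgcs1, 0.30 for Idi1, 0.75 for Fdps, 1.26 for Sqle and 1.14 for Dhcr7, the interaction 0.04 for Fdps, 0.07 for Sqle and 0.15 for Lss, and Dhcr7 between controls -0.16. With the replicate block, the interaction was -0.03 for Hmgcs1, and Fdps and Sqle between genotypes under CCl4 were at -0.05 and -0.01. Sqle in the WT response was 0, Dhcr7 in the Lcn2-/- response 0.12 and Dhcr7 between controls -0.13. This block changed no call among the members and the further cholesterol synthesis genes, but the call of Npc2 in the WT response was lost. Fdps in the WT response was -0.28 with 75th percentile scaling and -0.01 with normexp, and between genotypes under CCl4 0 with normexp and -0.04 in the authors' table. With the mean of its probes, Srebf2 was 0.47 in the WT response and -0.02 between genotypes under CCl4. With array weights, Srebf2 between controls was 0.13 and the interaction -0.09 for Hmgcs1 and -0.02 for Idi1. Without both control arrays numbered 3, an alternative chosen after seeing the data, the interaction was -0.08 for Hmgcs1 and -0.05 for Idi1 and the WT response of Sqle 0.02.

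With each array left out in turn, the differences whose sign turned ranged as follows. In the WT response they were -0.15 to 0.16 for Fdps and -0.35 to 0.02 for Sqle. In the Lcn2-/- response they were -0.17 to 0.45 for Lss and -0.35 to 0.25 for Dhcr7. Between genotypes under CCl4 they were -0.48 to 0.04 for Hmgcs1, -0.13 to 0.17 for Fdps, -0.11 to 0.37 for Sqle and -0.03 to 0.59 for Lss. Between controls they were -0.12 to 0.08 for Srebf2, -0.01 to 0.14 for Idi1 and -0.08 to 0.23 for Dhcr7. In the interaction they were -0.21 to 0.30 for Hmgcs1, -0.07 to 0.21 for Idi1, -0.54 to 0.09 for Lss and -0.04 to 0.55 for Dhcr7. Differences that kept their sign also moved. Among these, Hmgcs1 ran from -0.49 to -0.18 in the WT response and from -0.55 to -0.03 in the Lcn2-/- response. Lss in the WT response ran from 0.09 to 0.55, and Sqle in the Lcn2-/- response from -0.70 to -0.22.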

Other observations

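At the other end of the likeness scale, among genes with a RefSeq mRNA accession, Ube2n, a ubiquitin-conjugating enzyme, had r of -0.97 with the mean of the 6 member enzymes over the 16 arrays with group means removed. Arpc5l had -0.94 and Cstf2t -0.92. These genes were picked after their values were seen, as the most negative, and the values are given as descriptions of these arrays.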
